A study of Mus musculus with 5 samples.

Results

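The genes described here are the subunits of the transcription factor NF-kB, the IkB proteins that inhibit it and the kinase subunits that remove those inhibitors, read in spleens of Sirt6 mutant mice. They were taken by gene symbol from a list of 10, Rela, Relb, Rel, Nfkb1, Nfkb2, Nfkbia, Nfkbib, Nfkbie, Ikbkb and Ikbkg, and not by their values. Of these 10 genes, 9 had a probe named for them, with 14 probes among the 22204 named probes of the array. Nfkb1 was not named for any probe in the annotation used here and is not analysed here. All 9 had a gene value on every array and were tested among 9000 genes. The heterozygous group held 3 spleens that lacked Sirt6 (Sirt6-/-) and carried 1 functional copy of Rela (RelA+/-). The knockout group held 2 spleens that lacked Sirt6 only, so the loss of Sirt6 is shared by all 5 arrays. Each spleen's RNA, labelled with Cy5, was set against Cy3-labelled RNA from a pool of wild-type spleens. The sources used here do not give the age and sex of the mice, how the alleles were made, or how many spleens the pool held. The deposited values were taken as log2 ratios of spleen over pool, so that 0 is the level of the pool and each step of 1 is a doubling, although the authors state neither the base of the logarithm nor which sample is on top.

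NF-kB is a family of dimeric transcription factors. Rela, Rel and Relb encode subunits that can activate transcription, and Nfkb1 and Nfkb2 encode precursors that are processed to their DNA-binding partners. In resting cells the IkB proteins, encoded by Nfkbia, Nfkbib and Nfkbie, hold the dimers away from DNA. The IkB kinase, of which Ikbkb encodes a catalytic and Ikbkg the regulatory subunit, phosphorylates them and so marks them for degradation. Nfkbia is itself a classical NF-kB target, which forms a negative feedback loop. In the spleen these factors act in lymphocyte activation and in the layout of the lymphoid follicles. The design addresses whether members of this system differ from wild type when Sirt6, a chromatin-bound deacetylase, is absent, and whether the loss of 1 copy of Rela changes them further.

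Between 19768 and 22871 of 38784 spots had a value on an array, and the SD of gene log2 ratios was 0.756 to 1.29 between arrays. The targeted genes were read first. Sirt6 had a value on 1 array only, at -4.31 on heterozygous array 2, far below the pool. Its probes were blank on the other 4 arrays, where its loss could not be checked. The Rela probe lay at -0.084 and -0.20 on heterozygous arrays 2 and 3, but at 1.15 on the library labelled heterozygous 1, against 0.48 and 1.08 on the knockout arrays. Rela thus goes against the label of that library. On no heterozygous array, however, was Rela near -1 against the pool, the log2 change from 2 gene copies to 1. Whether the label is right was not tested, and the sources used here do not say whether the deletion covers the probe. Taken over all tested genes, which do not replicate each other, heterozygous arrays correlated at -0.006 to 0.335 and the knockout arrays at 0.823. The correlation with knockout arrays 1 and 2 was 0.392 and 0.588 for the library labelled heterozygous 1. It was 0.46 and 0.376 for heterozygous array 2, and -0.156 and -0.017 for heterozygous array 3. The Y-linked gene Uty lay between 2.44 and 2.96 on all 5 arrays, so sex and genotype cannot be told apart in a comparison with the pool. The group means share the pool, which cancels in the heterozygous minus the knockout mean.

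The inhibitor genes Nfkbib and Nfkbia stood furthest from the pool in the knockout spleens, while 3 of the 4 measured subunits lay within 1 log2 unit of it. Nfkbib had the highest ratio of the 9 members on both knockout arrays and Rel the lowest. Relative to the pool, Nfkbib averaged 1.33-fold in the heterozygous and 6.16-fold in the knockout group, and Nfkbia averaged 1.26-fold in the heterozygous and 2.74-fold in the knockout group. Rel averaged 0.329-fold in the heterozygous and 0.436-fold in the knockout group. None of the 9 members passed limma's moderated test, adjusted by Benjamini-Hochberg at 0.05 over all 9000 genes, in any of the 3 comparisons. At an unadjusted p under 0.05, limma found 1 of 9 members in the difference between the groups (Nfkbib; 8.82% of all genes), 2 of 9 in the heterozygous group against the pool (Rel and Nfkbie; 13.1% of all genes) and 2 of 9 in the knockout group against the pool (Nfkbia and Nfkbib; 20.4% of all genes). At the adjusted threshold the share of all genes was 0% in the difference, 0.322% in the heterozygous and 0% in the knockout comparison. The median over the members was -0.40 for the difference, 0.33 for the heterozygous and 0.38 for the knockout group, against 0.026, -0.020 and -0.032 over all genes tested. With Ikbkg read only from probes with a value on every array, the member median was 0.044 for the difference and 0.22 for the knockout group. The mean was above 0 for 4 of 9 members in the difference (51.5% of all genes), 6 of 9 in the heterozygous group (48.8%) and 6 of 9 in the knockout group (48.4%). All heterozygous arrays lay above the pool for 2 of 9 members (16.5% of all genes) and below it for 3 (15.1%), and both knockout arrays lay above it for 4 of 9 (39.6%) and below it for 2 (41.9%). With Ikbkg from its complete probes, 5 of 9 were above 0 in the difference and 5 of 9 in the knockout group, all heterozygous arrays lay below the pool for 2 and both knockout arrays for 3.

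**Figure D1:**
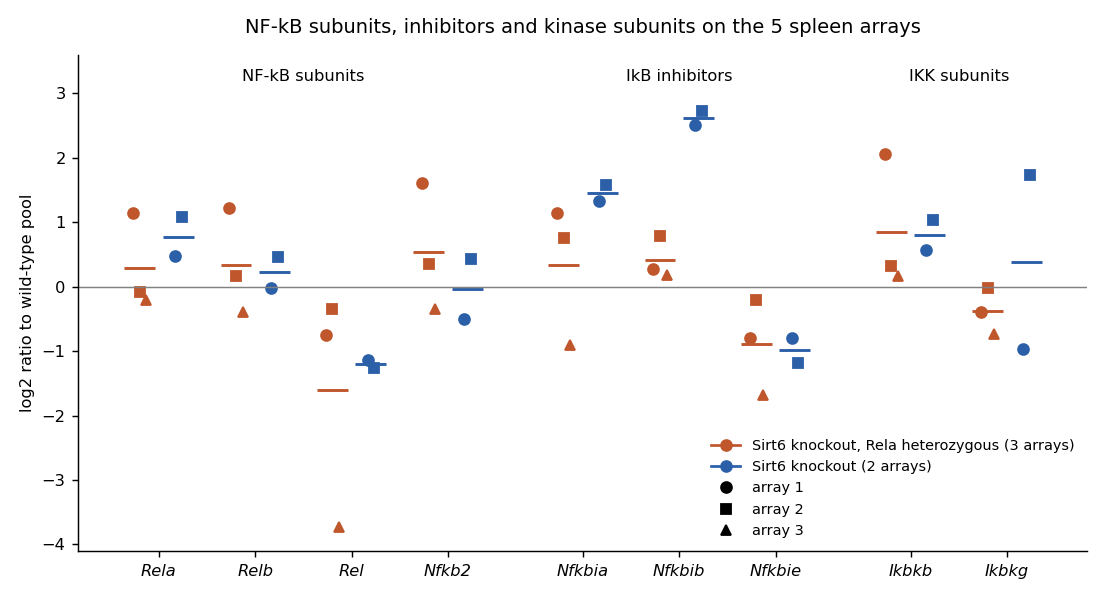
Log2 ratio to the wild-type pool (vertical axis) of the 9 measured members, with each array a point and the group mean a bar (orange, Sirt6 knockout and Rela heterozygous; blue, Sirt6 knockout). Nfkbib lies at 2.51 and 2.74 on the knockout arrays, above all 3 heterozygous arrays, and Rel at -3.73 on heterozygous array 3; the Ikbkg averages mix different probes on different arrays.

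**Figure D2:**
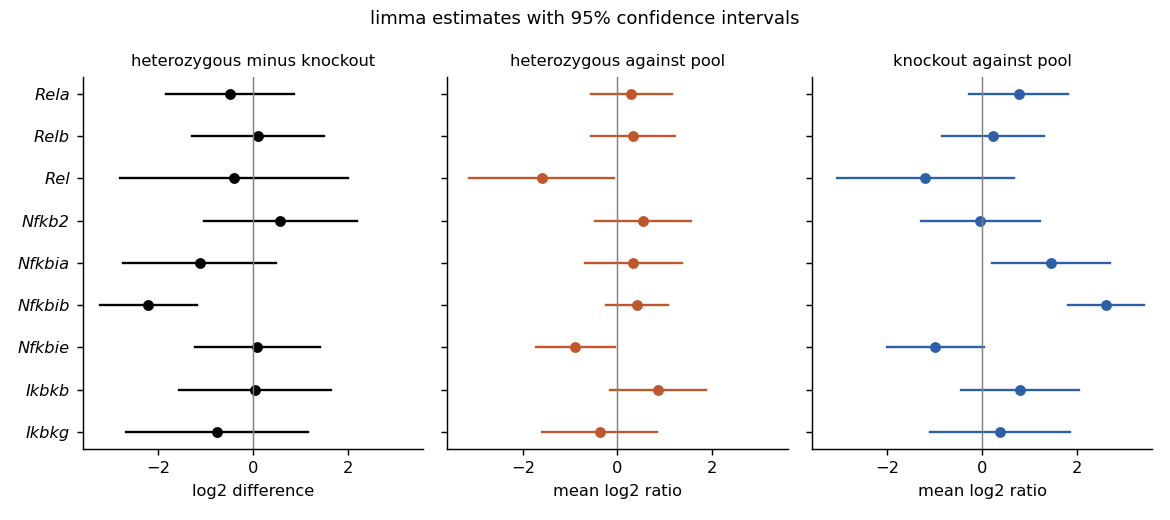
Limma estimates (points) with 95% confidence intervals (lines), as a log2 difference between the groups (left) or a mean log2 ratio to the pool (middle and right). In the left panel the interval of Nfkbib, from -3.24 to -1.18, is the only one of the 9 that does not reach 0; the intervals are not adjusted for the number of genes.

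The promoters are shown because NF-kB binding sites in them are the textbook route by which inhibitors and subunits become targets of the factor they belong to. RefSeq promoter sequences of assembly GRCm38.p6 were at hand for 7 of the 10 genes, and the 250 bases before each annotated start were searched on both strands for the kappaB consensus, with overlapping matches allowed. Of all 32851 promoter entries 7.3% held a match, and of all genes with an entry 8.2% had a match in any entry. Among the members a match was held by 6 of 12 entries and by 4 of 7 genes. It was found in Rel, Nfkb2, Nfkbia and Nfkbie, and not in the windows of Rela, Nfkbib and Ikbkg. The windows of the 3 inhibitor genes, of Rel and of the first of 3 Nfkb2 starts are printed 5′ to 3′ along the gene, with matches in capitals:
Nfkbia, chr12:55492648-55492897, minus strand: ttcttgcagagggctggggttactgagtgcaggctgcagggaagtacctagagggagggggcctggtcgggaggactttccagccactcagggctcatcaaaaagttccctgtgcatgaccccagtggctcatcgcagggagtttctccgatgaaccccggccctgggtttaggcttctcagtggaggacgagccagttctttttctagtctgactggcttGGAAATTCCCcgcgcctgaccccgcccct
Nfkbib, chr7:28766645-28766894, minus strand: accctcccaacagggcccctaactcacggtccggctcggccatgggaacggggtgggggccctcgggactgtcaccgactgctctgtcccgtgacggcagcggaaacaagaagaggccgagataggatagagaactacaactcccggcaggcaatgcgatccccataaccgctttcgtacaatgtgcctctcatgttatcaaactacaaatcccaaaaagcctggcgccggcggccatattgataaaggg
Nfkbie, chr17:45555450-45555699, plus strand: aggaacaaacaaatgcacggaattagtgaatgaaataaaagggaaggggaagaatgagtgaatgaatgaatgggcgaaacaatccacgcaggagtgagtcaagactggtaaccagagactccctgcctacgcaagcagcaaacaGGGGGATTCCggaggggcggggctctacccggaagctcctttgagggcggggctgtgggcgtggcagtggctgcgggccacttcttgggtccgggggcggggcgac
Rel, chr11:23770970-23771219, minus strand: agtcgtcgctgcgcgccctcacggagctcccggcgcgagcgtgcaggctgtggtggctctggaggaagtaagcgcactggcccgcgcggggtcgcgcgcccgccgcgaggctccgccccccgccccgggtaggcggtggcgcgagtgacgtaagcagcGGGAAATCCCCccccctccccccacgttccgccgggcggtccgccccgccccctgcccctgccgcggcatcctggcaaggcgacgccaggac
Nfkb2, chr19:46304487-46304736, plus strand: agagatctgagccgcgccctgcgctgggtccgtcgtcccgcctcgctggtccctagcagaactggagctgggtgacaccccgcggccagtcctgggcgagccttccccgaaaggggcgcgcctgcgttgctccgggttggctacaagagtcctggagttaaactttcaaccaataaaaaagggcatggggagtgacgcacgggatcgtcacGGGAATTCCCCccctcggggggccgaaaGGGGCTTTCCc
The match in Nfkbia begins 29 bases before the annotated start, and the one in Nfkbie 106 bases before it. A match describes these letters and shows no binding in these spleens. Genes with a match lay on both sides of the pool in the knockout group (Nfkbia at 1.46, Nfkb2 at -0.039, Nfkbie at -0.99 and Rel at -1.20).

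Among the NF-kB subunits, c-Rel was the one set lowest against the pool. Rel, which encodes c-Rel, a subunit of lymphocytes, lay at -0.74 on the library labelled heterozygous 1 and at -0.34 and -3.73 on heterozygous arrays 2 and 3, against -1.13 and -1.27 on the knockout arrays. All 5 arrays were below the pool, and the knockout arrays lay inside the range of the heterozygous ones. The difference was -0.40 ± 1.01 (SE, n = 3 and 2, limma adjusted p = 0.95, 95% confidence interval -2.82 to 2.01), and without heterozygous array 3 it was 0.66 (limma adjusted p = 0.722). Against the pool the mean was -1.60 ± 0.64 in the heterozygous group (limma adjusted p = 0.374) and -1.20 ± 0.78 in the knockout group (limma adjusted p = 0.41). Without heterozygous array 3 the heterozygous mean of Rel was -0.54. On that array Rel was at the 0.6 percentile of all tested genes.

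Rela, which encodes the main activating subunit of the canonical pathway, averaged 0.29 ± 0.36 in the heterozygous group and 0.78 ± 0.44 in the knockout group (SE, n = 3 and 2). The heterozygous arrays lay on both sides of the knockout arrays because of the library labelled heterozygous 1. The 95% confidence interval of the difference ran from -1.84 to 0.86 and so held both 0 and -1, the log2 change from 2 gene copies to 1. Without the library labelled heterozygous 1 the difference of Rela was -0.92 (limma adjusted p = 0.354), and the heterozygous mean turned to -0.14. With any other array left out the difference of Rela lay between -0.79 and -0.19.

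Relb and Nfkb2 encode the partners of the non-canonical pathway, which organises lymphoid tissue. Relb lay at 1.23 on the library labelled heterozygous 1 and at 0.17 and -0.40 on heterozygous arrays 2 and 3, against -0.013 and 0.46 on the knockout arrays. Nfkb2 lay at 1.62 on the library labelled heterozygous 1 and at 0.35 and -0.34 on heterozygous arrays 2 and 3, against -0.50 and 0.42 on the knockout arrays. In both genes the library labelled heterozygous 1 was highest and knockout array 2 came next, and the groups overlapped. The difference between the groups was 0.11 ± 0.58 for Relb (limma adjusted p = 0.977) and 0.58 ± 0.68 for Nfkb2 (limma adjusted p = 0.86), with 95% confidence intervals of -1.29 to 1.504 and -1.04 to 2.20. Without the library labelled heterozygous 1 the difference of Relb was -0.34, and that of Nfkb2 was 0.040.

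The inhibitor genes did not behave as a unit. Nfkbib, which encodes IkB beta, lay at 0.28 on the library labelled heterozygous 1 and at 0.79 and 0.18 on heterozygous arrays 2 and 3, against 2.51 and 2.74 on the knockout arrays. All 5 arrays were above the pool, and the groups did not overlap, with every heterozygous array below both knockout arrays. The difference was -2.21 ± 0.43 (SE, n = 3 and 2, 95% confidence interval -3.24 to -1.18), which is 0.216-fold with an interval of 0.106-fold to 0.442-fold. Its unadjusted p in limma was 0.0016 and its adjusted p over all genes 0.253, so it did not pass. Leaving out each array in turn gave a difference between -2.40 and -2.09, and limma adjusted p between 0.179 and 1.

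Nfkbib was at the 99.3 percentile of all tested genes on both knockout arrays, and at the 61.5 to 90.1 percentile on the heterozygous ones. The mean against the pool was 0.41 ± 0.27 in the heterozygous group (limma adjusted p = 0.488) and 2.62 ± 0.33 in the knockout group (limma adjusted p = 0.0912). The knockout value passed in 3 alternatives. With the spread from the 2 knockout arrays alone the limma adjusted p was 0.000412, and 3321 of 9000 genes passed. Without the 25% of genes that varied least it was 0.00169, and 641 of 6750 genes passed. With the replicate number as a block it was 0.00517, and 635 of 9000 genes passed. In the main fit 0 of 9000 genes passed. The gene has 1 probe on the array, so no other probe bears on this value.

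Nfkbia, which encodes IkB alpha, the fast feedback inhibitor, lay at 1.14 on the library labelled heterozygous 1 and at 0.76 and -0.90 on heterozygous arrays 2 and 3, against 1.34 and 1.57 on the knockout arrays. The groups did not overlap, but the library labelled heterozygous 1 came close to the lower knockout array. The difference was -1.12 ± 0.67 (SE, n = 3 and 2, limma adjusted p = 0.682, 95% confidence interval -2.73 to 0.49). It was -0.50 without heterozygous array 3. Without the library labelled heterozygous 1 the heterozygous mean of Nfkbia turned to -0.071, and without heterozygous array 3 it was 0.95. The knockout mean was 1.46 ± 0.52 (limma adjusted p = 0.197), and it passed with the spread of the knockout arrays alone (limma adjusted p = 0.00312). That setting passed 3321 of all 9000 tested genes. Nfkbia and Nfkbib were the 2 of 9 members with every heterozygous array below both knockout arrays, a pattern shown by 13.8% of all tested genes. The opposite pattern was shown by 0 of 9 members and 14.4% of all tested genes.

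Nfkbie, which encodes IkB epsilon, was below the pool in both groups, at -0.89 ± 0.35 in the heterozygous and -0.99 ± 0.43 in the knockout group (SE, n = 3 and 2, limma adjusted p = 0.374 and 0.257). Its 2 probes disagreed. Probe 727 lay at -2.21 on the library labelled heterozygous 1 and at -0.14 and -2.29 on heterozygous arrays 2 and 3, against -1.25 and -2.23 on the knockout arrays. Probe 8418 lay at 0.61 on the library labelled heterozygous 1 and at -0.26 and -1.07 on heterozygous arrays 2 and 3, against -0.33 and -0.13 on the knockout arrays. The low gene value thus came mainly from probe 727, and on heterozygous array 2 the probes differed by 0.13 only. The difference between the groups was 0.20 ± 0.79 for probe 727 and -0.0085 ± 0.59 for probe 8418.

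The 2 subunits of the IkB kinase differed in how well they were measured. Ikbkb, the catalytic subunit of the canonical pathway, was above the pool on all 5 arrays. It lay at 2.07 on the library labelled heterozygous 1 and at 0.32 and 0.16 on heterozygous arrays 2 and 3, against 0.57 and 1.04 on the knockout arrays. Both probes gave this order, with values of 1.36 and 2.77 on the library labelled heterozygous 1. The difference was 0.044 ± 0.67 (SE, n = 3 and 2, limma adjusted p = 0.994, 95% confidence interval -1.56 to 1.65). Leaving out the library labelled heterozygous 1 gave -0.57 for Ikbkb (limma adjusted p = 0.514).

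Ikbkg, the regulatory subunit also called NEMO, had 4 probes, and 2 of them had a value on every array. Probe 29966 lay at -0.39 on the library labelled heterozygous 1 and at 0.41 and 0.42 on heterozygous arrays 2 and 3, against 0.36 and 0.46 on the knockout arrays. Probe 31534 lay at -0.39 on the library labelled heterozygous 1 and at 0.016 and -0.25 on heterozygous arrays 2 and 3, against -0.996 and -1.19 on the knockout arrays. Every heterozygous array lay above both knockout arrays for the second probe (13.6% of all probes), with a difference of 0.89 ± 0.41 (limma adjusted p = 0.74 over 12538 probes), while the first gave -0.26 ± 0.46 (limma adjusted p = 0.948).

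The other 2 Ikbkg probes had values far from these. Probe 9815 read 1.74 on heterozygous array 3 and 5.91 on knockout array 2. Probe 19430 read -0.47 and -4.87 on heterozygous arrays 2 and 3 and -2.27 on knockout array 1. The averaged gene value therefore joined different probes on different arrays, and its difference of -0.76 ± 0.80 (limma adjusted p = 0.846) became 0.31 when only the complete probes were averaged. No direction is given for Ikbkg. Of the 12 member probes with a value on every array, 0 passed limma's adjusted threshold in any comparison, as did 0% of all 12538 probes.

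**Figure D3:**
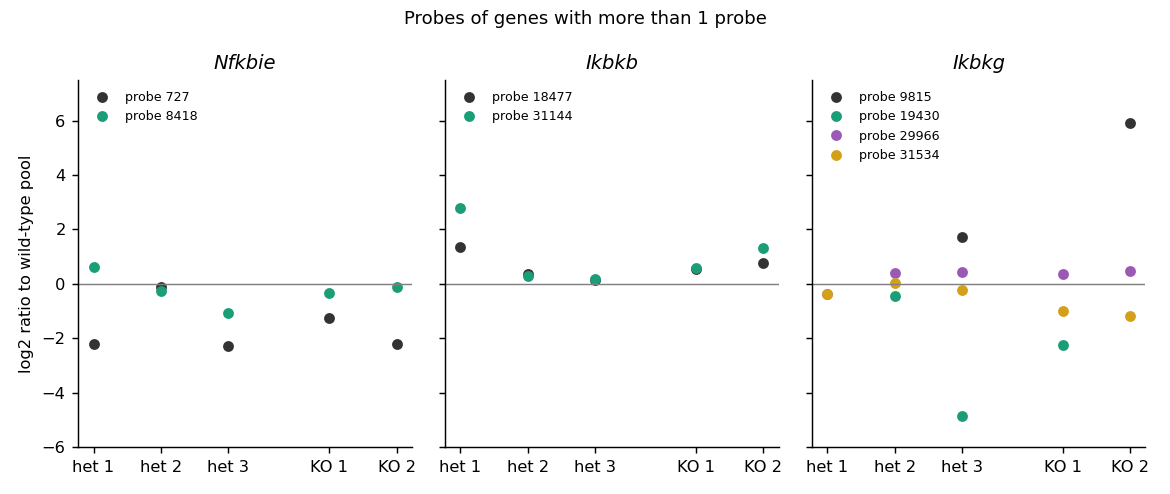
Log2 ratio to the pool (vertical axis) for each probe of the 3 members with more than 1 probe, on the heterozygous arrays (het) and the knockout arrays (KO). The Ikbkb probes order the arrays alike but part on heterozygous array 1 (probe 18477 minus probe 31144 is -1.41), Nfkbie probe 727 minus probe 8418 is 0.13 on heterozygous array 2 and between -2.82 and -0.92 on the others, and Ikbkg probes 9815 and 19430 have values on 2 and 3 arrays only.

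For 8 of 9 members, all but Ikbkg, the range over the 3 heterozygous arrays was wider than that over the 2 knockout arrays, as it was for 92.3% of all tested genes. A range over more arrays tends to be wider. The range of a member over its group had a median of 1.63 log2 units in the heterozygous and 0.472 in the knockout group, against 1.28 and 0.352 over all genes tested. All 9 members had their lowest heterozygous value on array 3, where 36.2% of all tested genes had theirs. For Ikbkg this held only through probe 19430, and averaged over its complete probes the library labelled heterozygous 1 was lowest. The highest heterozygous value was on the library labelled heterozygous 1 for 5 members (Rela, Relb, Nfkb2, Nfkbia and Ikbkb), and on array 2 for the other 4. Of all tested genes 33.8% had theirs on the first of these and 34.1% on the second. The member median was 1.14 on the library labelled heterozygous 1, 0.17 and -0.40 on heterozygous arrays 2 and 3, and -0.013 and 1.04 on the knockout arrays. These medians include the averaged Ikbkg value. On knockout array 2 it was 1.73, against -0.36 over the complete probes, and with the latter the median there would be lower. On heterozygous array 3 only Nfkbib and Ikbkb were above the pool, with Ikbkg as averaged over all its probes. Over its complete probes Ikbkg was also above the pool there, at 0.088.

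**Figure D4:**
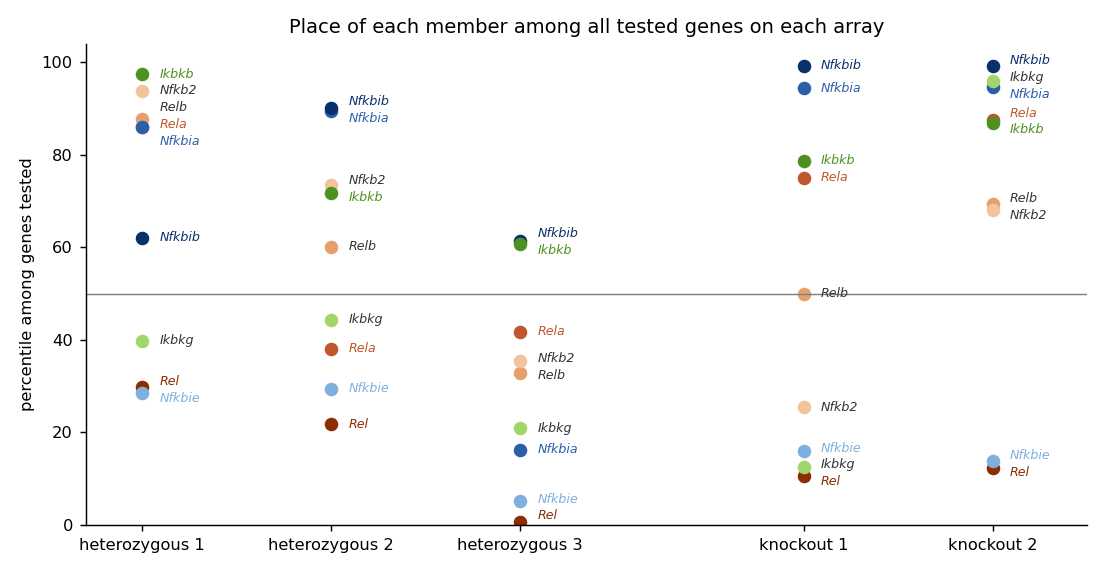
Percentile of each member among the 9000 genes tested on each array (vertical axis; 50 is the middle gene), which does not depend on the width of an array's distribution. Nfkbib stands at 99.3 on both knockout arrays, Rel between 0.6 and 29.8 on all arrays, and on heterozygous array 3 no member is above 61.5.

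Within an array the pool and the labelling are shared by all genes, so differences between members were also read there. Nfkbib minus Rela was -0.87 on the library labelled heterozygous 1 and 0.87 and 0.37 on heterozygous arrays 2 and 3, against 2.03 and 1.66 on the knockout arrays. The knockout arrays had the higher values, and the groups did not overlap, as they already did not for Nfkbib itself. Nfkbia minus Rela was -0.006 on the library labelled heterozygous 1 and 0.84 and -0.70 on heterozygous arrays 2 and 3, against 0.86 and 0.50 on the knockout arrays, so here the groups overlapped. Rel minus Rela was below 0 on all 5 arrays, between -3.53 and -0.26 on the heterozygous and at -1.61 and -2.34 on the knockout arrays.

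Markers of spleen cell types also varied between the arrays. Of 8 neutrophil markers 7 were tested, with a median of -1.48 on the library labelled heterozygous 1 and 1.34 and -0.70 on heterozygous arrays 2 and 3, against 2.21 and 0.88 on the knockout arrays. Of 8 erythroid markers 6 were tested, with a median of -0.76 on the library labelled heterozygous 1 and -0.34 and 2.52 on heterozygous arrays 2 and 3, against -2.23 and -2.35 on the knockout arrays. B cell markers (6 of 8 tested) had a median of -0.27 on the library labelled heterozygous 1 and -0.37 and -1.17 on heterozygous arrays 2 and 3, against -0.83 and -1.39 on the knockout arrays. Rel and the B cell median were each below the pool on all 5 arrays. Both were nearest to it on the library labelled heterozygous 1 and heterozygous array 2. Both were furthest below it on heterozygous array 3 and knockout array 2. Rel was lowest on heterozygous array 3 and the B cell median on knockout array 2. T cell markers (5 of 8 tested) had a median of -0.65 on heterozygous array 3 and lay above the pool on the others. Macrophage and monocyte markers (5 of 8 tested) had a median of 0.32 in the heterozygous and 1.07 in the knockout group, and endothelial markers (6 of 6) one of -0.021 in the heterozygous and 1.07 in the knockout group. Natural killer cell markers (6 of 6) had a median of 0.10 in the heterozygous and -1.13 in the knockout group, dendritic cell markers (5 of 6) one of 0.72 in the heterozygous and 0.57 in the knockout group, and stromal markers (7 of 7) one of -1.11 in the heterozygous and -0.76 in the knockout group. In whole spleen, fewer cells of a type and less RNA per cell cannot be told apart, and the part of these markers in the values of the members was not tested.

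The genes most like 3 of the members over the 5 arrays were found by the root mean square difference of their log2 ratios. Nearest to Rela were Ankrd10 at 0.093, the cytoplasmic deacetylase gene Hdac6 at 0.108 and Midn at 0.114. Nearest to Nfkbia were Arid5b at 0.149, the glutathione transferase gene Gstt3 at 0.217 and the translation termination factor gene Gspt2 at 0.225. Nearest to Nfkbib were Luzp1 at 0.224, the enzyme gene H6pd at 0.295 and Zc3h6 at 0.324. The measure describes likeness on these arrays only. Among the members, Relb was nearest to Rela, at rank 405 of all tested genes, and Nfkbia was nearest to Nfkbib, at rank 248.

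The rest of the pathway had group medians close to the pool, with more genes above it than below. Of 65 further pathway genes, 51 were tested, and 0 passed limma's adjusted threshold in any comparison. In the difference between the groups 32 were above 0 and 19 below, with a median of 0.060 (0.026 over all genes), and 1 was higher and 0 lower at an unadjusted p under 0.05, against 3.48% and 5.34% of all genes. In the heterozygous group 34 lay above the pool and 17 below (median 0.20), with 5 higher and 2 lower at an unadjusted p under 0.05, against 5.06% and 8% of all genes. In the knockout group 28 lay above the pool and 23 below (median 0.15), with 3 higher and 4 lower, against 9.82% and 10.6% of all genes. Of all genes tested, 51.5% were above 0 in the difference, 48.8% in the heterozygous and 48.4% in the knockout group.

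Single genes of the pathway stood on either side. Map3k7, which encodes the kinase TAK1 that activates the IkB kinase, lay at 0.77 on the library labelled heterozygous 1 and at 0.35 and 0.91 on heterozygous arrays 2 and 3, against -0.59 and -1.04 on the knockout arrays. Its difference was 1.49 ± 0.44 (SE, n = 3 and 2, limma adjusted p = 0.406), and that of Tab3, which encodes an adaptor of TAK1, was 1.36 ± 0.75 (limma adjusted p = 0.657) and 0.64 without heterozygous array 3. For Map3k7 both knockout arrays lay below and all heterozygous arrays above the pool, as for 1 of the 51 pathway genes and 2.12% of all tested genes. The reverse was shown by 0 of the 51 and 3.24% of all tested genes. Nfkbiz, an inducible nuclear IkB gene, had a mean of 1.19 ± 0.50 in the heterozygous and 2.04 ± 0.61 in the knockout group (limma adjusted p = 0.385 and 0.155). The knockout value of Nfkbiz passed in the same 3 alternatives as that of Nfkbib. The limma adjusted p was 0.00731 from the knockout arrays alone, 0.0232 without the genes that varied least and 0.0387 with the replicate block. Over all tested genes these settings passed 3321 of 9000, 641 of 6750 and 635 of 9000. The knockout mean of Nfkbiz rested on arrays at 1.12 and 2.96, which are also its values with the other one left out. Bcl3, a nuclear IkB relative that binds the p50 and p52 subunits, had means of 0.43 ± 0.43 and 0.74 ± 0.53 in the heterozygous and knockout groups.

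Among adaptors and ligases, Traf1, an adaptor of tumour necrosis factor receptors and an NF-kB target, lay at 3.08 on the library labelled heterozygous 1 and at 1.32 and 0.45 on heterozygous arrays 2 and 3, against -0.41 and 0.27 on the knockout arrays. Every heterozygous array lay above both knockout arrays, as for 5 of the 51 pathway genes and 14.4% of all tested genes. The reverse held for 4 of the 51 and 13.8% of all tested genes. The difference of Traf1 was 1.69 ± 0.80 (SE, n = 3 and 2, limma adjusted p = 0.603). It was 0.96 without the library labelled heterozygous 1 and 2.27 without heterozygous array 3. Peli1, a ubiquitin ligase gene, had a difference of -0.95 ± 0.40 (limma adjusted p = 0.573), and Ube2n, a ubiquitin-conjugating enzyme gene, one of 1.04 ± 0.50 (limma adjusted p = 0.607). Of the negative regulators, Tnfaip3, which encodes the deubiquitinase A20, had a mean of -0.044 ± 0.37 in the heterozygous and 1.00 ± 0.45 in the knockout group, and Tnip2, which encodes a partner of A20, one of 0.028 ± 0.36 in the heterozygous and 1.17 ± 0.45 in the knockout group. Neither difference passed (limma adjusted p = 0.666 and 0.634), and without heterozygous array 3 that of Tnfaip3 was -0.58, against -1.04 with it. Both genes were named for their large moderated t, and of the 12 negative regulators tested 5 had a difference above 0 and 7 below, with a median of -0.12. Commd1, which promotes the removal of Rela protein, had a difference of 0.50 ± 0.63, with means of -0.66 ± 0.40 and -1.16 ± 0.49 in the heterozygous and knockout groups.

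Btrc, which encodes the receptor subunit that recognises phosphorylated IkB for degradation, had an average over its 2 probes below the pool on all 5 arrays, with means of -0.99 ± 0.37 in the heterozygous and -1.37 ± 0.45 in the knockout group (SE, n = 3 and 2, limma adjusted p = 0.37 and 0.174). This average joins a probe with a value on every array and one with no value on the library labelled heterozygous 1. The complete probe of Btrc alone was at 0.46 on heterozygous array 3 and gave -2.34 in the knockout group, and its difference between the groups was 1.59, against 0.37 for the average. Skp1, of the same ligase, had means of -0.30 ± 0.27 and -0.73 ± 0.34 in the heterozygous and knockout groups. Of 7 nuclear cofactors 3 were tested, the deacetylase genes Hdac2, Hdac3 and Sirt1, with differences of 0.50 ± 0.52, 0.0043 ± 0.49 and 0.35 ± 0.58. All 3 intervals held 0.

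**Figure D5:**
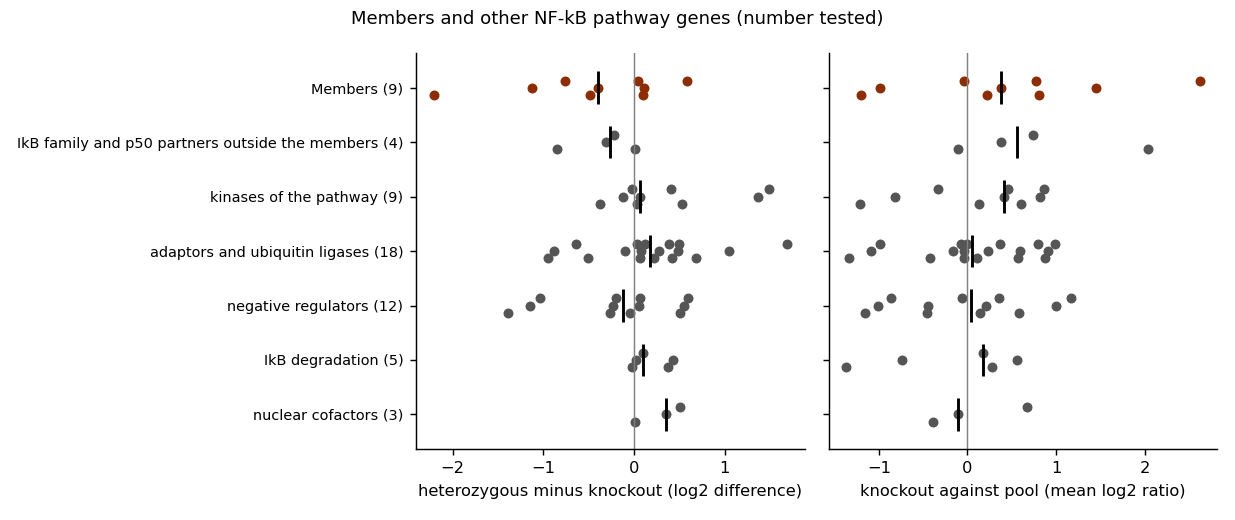
Each point is a gene, placed by its log2 difference between the groups (left) or its mean log2 ratio to the pool in the knockout group (right), with black lines at the median of each list; the vertical spread of points has no meaning. Nfkbib is the member at the far left of the first panel (-2.21) and the far right of the second (2.62), and the medians of the other lists lie between -0.27 and 0.56.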

How the data were processed

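Each of 5 mouse spleens was measured on 1 array in 2 colours, and 15 ug of amplified RNA went into each dye, per the labels. The deposited values were taken as log2 of the ratio of Cy5 (mutant spleen) to Cy3 (pool), ranging from -9.119 to 8.27. The sources used here do not give the log base, the direction, the normalization or the rule behind blank cells. Intensities of spots were not used here, so the signal behind a ratio is unknown, and the number of arrays limits the precision. The deposited medians, -0.039 to 0.004, were subtracted from each array, probes of a gene were averaged, and 9000 genes, those measured on all 5 arrays, were tested.

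Limma 3.58.1 in R 4.3.3 was fitted to all 5 arrays with a mean for each group (3 residual and 3.63 prior degrees of freedom). Tests, 2-sided, were made of the heterozygous minus the knockout mean and of each group mean against 0, with the Benjamini-Hochberg method over all genes. The same was done for 12538 probes. SE is limma's moderated standard error over all 5 arrays. The pool counts as 1 control sample and leaves out the spread of wild-type spleens, and dyes were not swapped. Nothing identifies the animals, so each p-value reflects only how far these samples spread, which may be technical.

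The members and lists were chosen with earlier results of these data known. All members with their probes were named, with 3 genes of the smallest root mean square difference from Rela, Nfkbia and Nfkbib, and from each pathway list the 2 genes of largest absolute moderated t in the difference and in the knockout comparison. The genes of the lists, 130 symbols, were matched to the array for 107 and tested for 104. Alternatives were the deposited values uncentred, quantile normalization, equal median absolute deviation, genes measured on 2 or more arrays per group, single probes, removal of the 25% of genes that varied least, robust eBayes, a block for the replicate number, only the arrays of the group and each array left out. Averaging only complete probes was an alternative chosen after seeing the data. The fit was tested on simulated data. Names came from the platform annotation and RefSeq (GRCm38.p6). Python 3.11.15 and matplotlib 3.10.9 made the figures.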

Additional observations from a re-analysis of the deposited data

Results flagged for a closer look

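Map3k7 had every knockout array below and every heterozygous array above the pool, with a difference of 1.49 ± 0.44 (SE, n = 3 and 2). Limma's test of that difference gave an adjusted p of 0.406, so it did not pass. It was the 1 of 51 pathway genes with this pattern, a share like the 2.12% of all tested genes. Map3k7 was named for its large moderated t among the kinases of the pathway.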

How the results depend on the processing

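Of 27 member values (9 members in 3 comparisons), 15 kept their direction under every alternative run, among them all 3 values of Nfkbib. The count of members past limma's adjusted threshold was 0 under the main setting in each comparison. For the knockout group it became 1 without the 25% of genes that varied least, 1 with the replicate number as a block and 6 with only the knockout arrays, where genes called over the whole array numbered 641, 635 and 3321, against 0. For the heterozygous group against the pool, 29 genes were called, against 5 with uncentred values, 53 with quantile normalization, 301 without the least variable 25%, 186 with the replicate block, and 0 with equal median absolute deviation, values on at least 2 arrays of each group, robust eBayes, only the group's arrays, or each probe on its own. Leaving out each array in turn gave 0 to 3 genes. For the difference between the groups, the count of 0 became 135 without the least variable 25% and 42 with the replicate block. The replicate numbers share no stated source, and same-numbered arrays deviated from their group means with r of -0.409 and -0.399, so they are not taken as pairs. The block gave heterozygous array 3, which has no same-numbered knockout array, a term of its own. Its group means were therefore those without that array. The differences of Rel (0.66), Bcl3 (0.23) and Sirt1 (-0.11) turned under the block as they did with that array left out.

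Leaving out arrays turned further values of small size. In the difference, Relb lay between -0.34 and 0.475, Rel between -1.04 and 0.66, Nfkbie between -0.25 and 0.488, Ikbkb between -0.57 and 0.387, Ikbkg between -2.11 and 0.59, Nfkbiz between -1.77 and 0.073, Bcl3 between -0.83 and 0.23 and Sirt1 between -0.11 and 0.617. Relb was at -0.13 and Ikbkb at -0.19 without knockout array 1, and Nfkbie was at -0.099 and Bcl3 at 0.021 without knockout array 2. Against the pool, the knockout mean of Nfkb2 lay between -0.50 and 0.42, of Relb between -0.013 and 0.461 and of Ikbkg between -0.97 and 1.73. The heterozygous mean lay between -0.14 and 0.533 for Rela, -0.11 and 0.698 for Relb and -0.071 and 0.95 for Nfkbia. Averaging complete probes, chosen after seeing the data, moved Ikbkg to -0.34 in the knockout group and 0.31 in the difference, and Btrc to -2.34 and 1.59. Read alone, Ikbkg probe 31534 gave -1.09 in the knockout group and 0.89 in the difference, and probe 29966 gave 0.15 in the heterozygous group. Nfkbie probe 8418 gave -0.009 and Ikbkb probe 18477 gave -0.038 in the difference, and equal median absolute deviation moved Ikbkb to -0.053 there. The cause of the other changes was not tested. The number of arrays, 3 and 2, limits every value, and signal over background is unknown.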
